A study of Homo sapiens with 3 samples.

Results

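Cancer-testis antigens are proteins that are normally made in male germ cells and that many tumors express. The genes examined here are those of 10 families, MAGEA, MAGEB, MAGEC, SPANX, GAGE, PAGE, XAGE, SSX, CTAG and CSAG, measured by microarray in the lung cancer cell line H1975 and in 2 osimertinib-resistant lines derived from it, OR1 and OR2. Members were chosen by the start of the gene name in the array's annotation, which gave 65 genes with 85 probes out of 43317 gene names with 58201 probes. Of these, 57 genes with 71 probes belong to the families, and 8 genes with 14 probes, SSX2IP and the CTAGE genes, share only the start of their name with SSX and CTAG. The latter were counted with the members where this is said and are otherwise described apart.

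H1975 is a non-small cell lung cancer line harboring mutated EGFR, and all 3 lines descend from it. OR1 and OR2 were established separately by exposing H1975 to stepwise increasing osimertinib, an EGFR inhibitor, up to 2 μmol/L over 4 months, whereas H1975 itself was not selected. Each line was hybridized to 1 Agilent single-colour array, so no ratio has a replicate, and what distinguishes OR1 from OR2 cannot be told apart from the variation between single cultures. The comparisons ask which members were up-regulated or down-regulated in OR1 and OR2 as compared to H1975, and where the resistant lines differed from each other.

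Most of these genes lie on the X chromosome in clusters of close copies. They are silent in most adult tissues, where DNA methylation at their promoters is the best known means of silencing, and become active in germ cells and, irregularly, in tumors. MAGE proteins bind ubiquitin ligases, SPANX proteins are found in the nucleus of sperm, SSX proteins repress transcription, and CTAG proteins are among the tumor antigens most often recognized by T cells. GAGE, PAGE and XAGE proteins are small and acidic. Because copies are so similar, a probe named for a member can take up the transcript of its neighbors.

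All 71 family probes mapped to chromosome X of hg19, as compared to 3.22% of all mapped probes on the array, and none of the 14 probes of SSX2IP and CTAGE did. The probes that the findings turn on are shown with their hg19 position and strand as the files give them, 5′ to 3′, so that their identity can be checked. Of 4 probes all 60 bases are shown, and of the others a stretch of 30. The SPANXB1 probe (NM_032461, chrX:140097760-140097819, plus strand), the SPANXC probe (NM_022661, chrX:140785709-140785768, minus strand), the XAGE1B probe (NM_001097594, chrX:52241141-52241200, plus strand) and the MAGEA6 probe (NM_175868, chrX:151870169-151870228, plus strand) were as follows.
SPANXB1: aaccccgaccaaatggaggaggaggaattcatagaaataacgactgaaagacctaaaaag
SPANXC: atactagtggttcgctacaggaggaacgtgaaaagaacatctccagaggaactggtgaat
XAGE1B: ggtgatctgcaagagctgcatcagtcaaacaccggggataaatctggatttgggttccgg
MAGEA6: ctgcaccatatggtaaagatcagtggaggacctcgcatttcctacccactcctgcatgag
The first 30 bases of the MAGEB2 probe (NM_002364, chrX:30237708-30237767, plus strand) and of both SSX4B probes (NM_001034832, chrX:48252375-48252434 and chrX:48252313-48252372, plus strand), which changed between the lines, were as follows.
MAGEB2: caaagccaagtttacctgctgttctcaccc
SSX4B, the first probe: tccgctgtattttcttgcagtgtgccattc
SSX4B, the second probe: tcacaacagtgaaaagttgagcgtcatttt

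Most members gave no signal. Of the 71 family probes, 19 (26.8%) were called well above background by the scanner software on at least 1 array, as compared to 50.4% of all 58200 probes retained and 54.3% of the 1798 other probes on chromosome X. These 19 probes stood for 18 of the 57 genes. The 52 remaining probes had intensities between 2.49 and 11.2 in H1975, between 2.28 and 11.5 in OR1 and between 2.52 and 14.1 in OR2, where the floor, the lowest intensity with that call, lay at 12.6, 11.4 and 12.6, respectively. The call is made for each spot, so the ranges can overlap. A probe below background gives no level, and its gene may be transcribed at a level that these arrays did not detect.

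Detection differed between families. In MAGEC, none of the 5 probes for MAGEC1, MAGEC2 and MAGEC3 was above background. In MAGEB, 1 of 12 probes was, that of MAGEB2, and in MAGEA 2 of 15, those of MAGEA6 and of the antisense transcript MAGEA8-AS1. The MAGEA genes below background throughout were MAGEA1, MAGEA2B, MAGEA4, MAGEA8, MAGEA9, MAGEA10, MAGEA10-MAGEA5, MAGEA11 and MAGEA12, and the MAGEB genes were MAGEB1, MAGEB3, MAGEB4, MAGEB5, MAGEB6, MAGEB10, MAGEB16, MAGEB17 and MAGEB18. In SPANX 4 of 10 probes were above background, in SSX 4 of 12, in XAGE 2 of 5, in GAGE 1 of 3 and in PAGE 1 of 5. Both CTAG probes and both CSAG probes were above background. Other genes below background throughout were SPANXN1 to SPANXN5, SSX1, SSX5, SSX6, SSX7, SSX8, GAGE1, GAGE7, PAGE1, PAGE2, PAGE4, XAGE2, XAGE5 and XAGE-4.

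**Figure D1:**
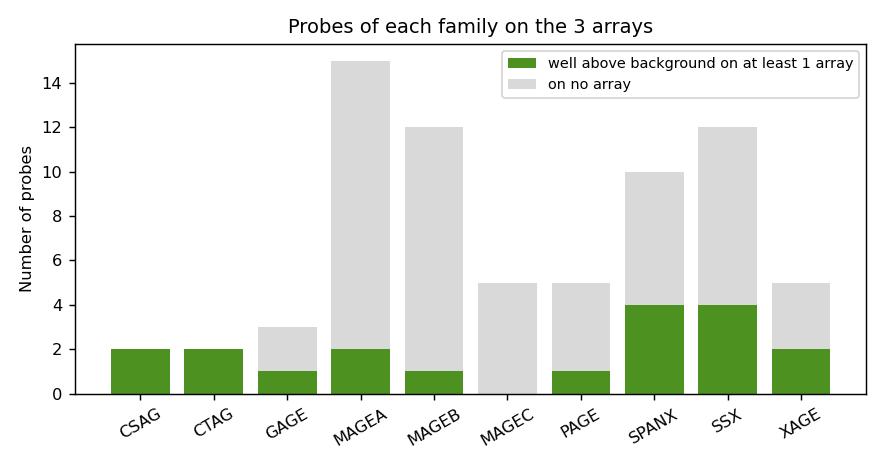
Number of probes in each of the 10 families (bars), divided into those well above background on at least 1 of the 3 arrays (green) and those on no array (grey). MAGEA, MAGEB and MAGEC had 3 probes above background out of 32, and in CTAG and CSAG all probes were above background.

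By line, 17 family probes were above background in H1975, against 15 in OR1 and 13 in OR2, and 12 were above background in all 3 lines. The 7 that were not were those of CTAG2 and both probes of SSX4B, seen in H1975 only, those of SPANXB1 and SPANXC, seen in H1975 and OR1, that of SPANXA1, seen in OR1 only, and that of XAGE3, seen in OR2 only. These calls depend on the brightness of single spots, and the intensities behind them are given below with each family.

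A ratio was computed for a probe well above background on at least 1 side after each array's log2 intensities were reduced by their 75th percentile. Where the other side was not well above background, it was set to the lowest intensity called well above background on that array or to its own if higher, which makes the ratio a bound, given as "at least" or "at most". A ratio of at least 2 or at most 0.5, the criteria in the study's methods, was counted as a change. Ratios measured on both sides carry a technical SD on the log2 scale, derived from the error that the scanner software gives for each spot, which lay between 0.20 and 0.37 with a median of 0.27 for these probes. It describes the measurement of the same RNA and leaves out differences between cultures, and no p-value can be given. With RNA from whole cultures, fewer cells with a transcript and less of it per cell cannot be told apart.

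In OR1 as compared to H1975, 29 of the 85 member probes had a ratio, of which 3 (10.3%) were up-regulated and 4 (13.8%) down-regulated, as compared to 9.2% and 9.5% of all 28615 probes with a ratio. In OR2 as compared to H1975, also with 29 probes, none was up-regulated and 5 (17.2%) were down-regulated, as compared to 7.85% and 8.46% of all 28410 probes. In OR1 as compared to OR2, 2 of 27 member probes (7.41%) were higher and 2 lower, as compared to 2.78% and 2.51% of all 28083 probes. A single member probe is more than 3% of the members in each of these shares. Without SSX2IP and CTAGE, 3 probes were up-regulated and 3 down-regulated out of 18 in OR1, 4 were down-regulated out of 18 in OR2, and 2 were higher and 2 lower out of 16 in OR1 as compared to OR2. Bounds made up 4, 6 and 4 of the ratios of the 3 comparisons, and a probe above background on the brighter side only had to differ, so these counts describe the members and support nothing further. The first and the second comparison share the H1975 array. With normexp background correction, which adds an offset of 50 to intensities that for most members are of that size or lower, the only members past the criterion were CTAGE5 as compared to H1975 and SPANXB1 and SPANXC in OR1 as compared to OR2. The median log2 ratio over the family probes was 0.19 in OR1, -0.09 in OR2 and 0.40 in OR1 as compared to OR2, and that over all probes with a ratio was 0.05, -0.04 and 0.06. Over the other probes on chromosome X, 9.3% were up-regulated and 7.29% down-regulated in OR1, and 8.83% and 6.81% in OR2.

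**Figure D2:**
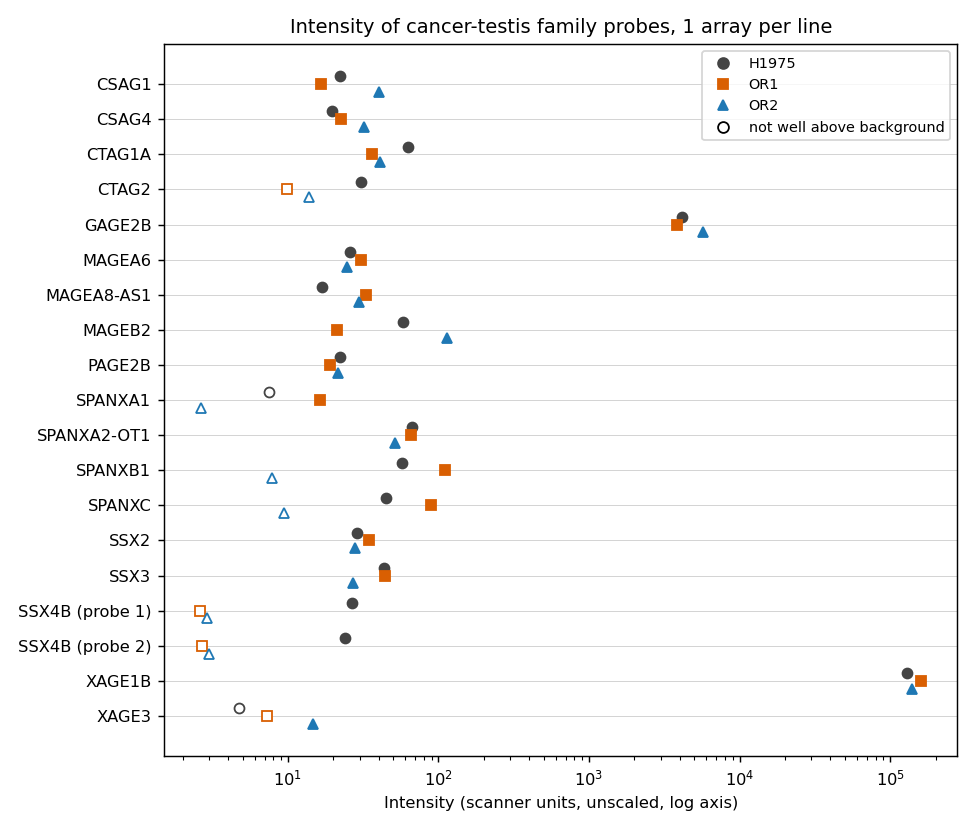
Intensity in scanner units, before scaling, of the 19 family probes above background on at least 1 array, on a log axis, with 1 point per line (filled, well above background; open, not). SPANXB1 and SPANXC were filled in H1975 and OR1 and open in OR2, and both SSX4B probes were filled in H1975 only.

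Of the 16 family probes with a ratio of OR1 to OR2, those of SPANXB1 and SPANXC were higher in OR1 past the criterion. SPANXB1, a sperm nuclear protein, had an intensity of 57.1 in H1975, against 110.0 in OR1 and 7.83 in OR2, where it was not above background. OR1 was thus the highest and OR2 was below detection. The ratio was 2.20 in OR1 as compared to H1975 (log2 1.14 ± 0.22, technical SD), at most 0.215 in OR2 as compared to H1975, and at least 10.2 in OR1 as compared to OR2.

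SPANXC, a close copy of SPANXB1, had an intensity of 45.1 in H1975, against 89.5 in OR1 and 9.40 in OR2, again with OR2 below background. Its ratio was 2.26 in OR1 as compared to H1975 (log2 1.18 ± 0.23) and at most 0.272 in OR2. In OR1 as compared to OR2, the ratio was at least 8.32. The order of the lines was that of SPANXB1. The increase over H1975 depended on the scaling, since the log2 ratio in OR1 was 0.95 for SPANXB1 and 0.99 for SPANXC without scaling and 0.55 and 0.60 with scaling on spike-in probes. All of these fell short of the criterion of 2, which is 1 on the log2 scale.

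These SPANX probes could not be treated as independent. By the accessions that the files attach to each probe, the SPANXB1 probe belongs to SPANXB1 alone, whereas the SPANXC probe is listed for SPANXA1, SPANXB1, SPANXC and SPANXD. The SPANXC probe could therefore take up the SPANXB1 transcript, and which of these 4 genes gave its signal was not tested. The SPANXA1 probe is listed for SPANXA1, SPANXA2, SPANXC and SPANXD, but not for SPANXB1. Its intensity was 7.43 in H1975 and 2.65 in OR2, below background in both, and 16.3 in OR1, where it was above. The ratio was at least 1.48 in OR1 as compared to H1975 and at least 1.51 in OR1 as compared to OR2, short of the criterion.

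The transcript SPANXA2-OT1, a noncoding RNA that overlaps the SPANXA2 locus, had an intensity of 67.0 in H1975, against 65.5 in OR1 and 51.6 in OR2. The lines lay close to each other, with ratios of 1.12 (OR1) and 0.749 (OR2) as compared to H1975, and the other probe of this transcript was below background on every array. The 5 SPANXN genes, more distant members of the family, were below background in every line, in OR1 as well as in OR2.

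The promoter windows of SPANXB1, SPANXC, SPANXA1 and SPANXA2 held a nearly identical stretch, whereas no such stretch was found in the window of SPANXD. RefSeq windows on GRCh38.p14, from 250 bases before to 50 bases after the annotated start, were available for these genes. The 150 bases before the start of SPANXB1 (chrX:141002444-141002593, plus strand) are shown with the matching stretch of SPANXC (chrX:141242558-141242706, minus strand), which ends 40 bases before the annotated start of SPANXC. CG dinucleotides, the sites of DNA methylation, are in capitals.
SPANXB1: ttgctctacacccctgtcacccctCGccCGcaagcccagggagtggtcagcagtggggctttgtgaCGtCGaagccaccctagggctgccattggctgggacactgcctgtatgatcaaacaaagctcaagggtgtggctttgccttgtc
SPANXC: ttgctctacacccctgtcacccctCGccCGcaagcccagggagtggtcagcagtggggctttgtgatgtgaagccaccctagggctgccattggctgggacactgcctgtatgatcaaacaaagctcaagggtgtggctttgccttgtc
The stretches shared 148 bases, with 1 substitution and 1 base missing from SPANXC, and the differing bases fall in CG dinucleotides, so that the stretch of SPANXB1 holds 4 of these and that of SPANXC 2. The matching stretches of SPANXA1 and SPANXA2 also shared 148 bases with SPANXB1 and held 2 CG dinucleotides. Within the window of SPANXD, the best alignment had only 85 identical bases, with 55 substitutions and 22 gap bases. Whether a matching stretch lies outside that window was not tested. Methylation was not measured in this series.

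**Figure D3:**
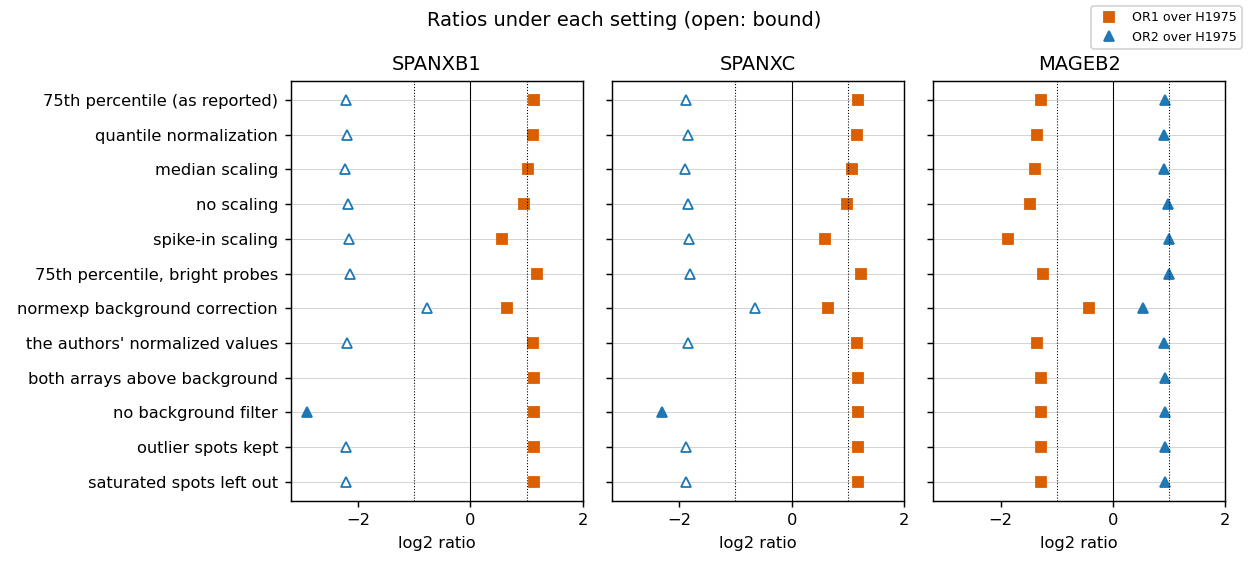
Log2 ratios of SPANXB1, SPANXC and MAGEB2 in OR1 (squares) and OR2 (triangles) as compared to H1975 under each setting of the processing (rows; filled, measured on both sides; open, bound; dotted lines at 1 and -1). The sides of 0 stay the same in every row, while SPANXB1 in OR1 lies at 0.55 with spike-in scaling and 0.65 with normexp.

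MAGEB2, a MAGE protein of the testis, showed the lines in the opposite order. Its intensity was 58.5 in H1975, against 21.1 in OR1 and 114.7 in OR2, above background on all 3 arrays. OR1 was the lowest and OR2 the highest, with H1975 between them. The ratio was 0.411 in OR1 as compared to H1975 (log2 -1.28 ± 0.27) and 0.215 in OR1 as compared to OR2 (log2 -2.22 ± 0.27). In OR2 as compared to H1975, the ratio was 1.91 (log2 0.93 ± 0.22), short of the criterion. The probe is listed for MAGEB2 alone. All probes of the other MAGEB genes were below background.

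In MAGEA, the probe named for MAGEA6, a partner of the ubiquitin ligase TRIM28, is listed for MAGEA3 and MAGEA6, which cannot be told apart by it. Its intensity was 25.7 in H1975, against 30.4 in OR1 and 24.7 in OR2, with ratios of 1.35 (log2 0.43 ± 0.28) and 0.935 (log2 -0.10 ± 0.30) as compared to H1975. The lines differed little, and the other MAGEA6 probe, also listed for MAGEA3, was below background on every array. The antisense transcript MAGEA8-AS1 had an intensity of 16.9 in H1975, against 32.8 in OR1 and 29.8 in OR2, with both resistant lines above H1975. It was up-regulated in OR1 with a ratio of 2.22 (log2 1.15 ± 0.33), and OR2 had a ratio of 1.72 (log2 0.78 ± 0.34). In OR1, its log2 ratio came to 0.96 without scaling and to 0.57 with scaling on spike-in probes. MAGEA8 itself was below background in every line.

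The CSAG genes lie among the MAGEA genes on chromosome X. CSAG1 had an intensity of 22.1 in H1975, against 16.5 in OR1 and 40.4 in OR2, highest in OR2. In OR1 as compared to OR2, its ratio was 0.478 (log2 -1.07 ± 0.32), and as compared to H1975 it was 0.852 in OR1 and 1.78 in OR2. CSAG4 had an intensity of 19.7 in H1975, against 22.5 in OR1 and 32.0 in OR2, also highest in OR2, with ratios of 1.30 and 1.58 as compared to H1975 and of 0.824 in OR1 as compared to OR2, none past the criterion. The RefSeq promoter window of CSAG1 (chrX:152733672-152733971, minus strand, GRCh38.p14) overlaps a window of MAGEA12 on the opposite strand (chrX:152733612-152733911), and MAGEA12 was below background in every line. The probes for CSAG1 and CSAG4 are similar, as 30 bases of each show, with the differing bases in capitals.
CSAG1: aGgaactcaatcaaaatgCgCcacagCagg
CSAG4: aAgaactcaatcaaaatgAgAcacagTagg
Of these 30 bases, 26 were identical.

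SSX4B, a transcriptional repressor of the family that is fused to SS18 in synovial sarcoma, gave signal in H1975 and in neither resistant line. Its probes are listed for SSX4 and SSX4B, which cannot be told apart. The first probe had an intensity of 26.5 in H1975, against 2.61 in OR1 and 2.88 in OR2, and the second 23.8, 2.69 and 2.998, so that both probes were above background in H1975 only. For the first probe, ratios were at most 0.490 (OR1) and 0.463 (OR2) as compared to H1975. For the second, the ratio was at most 0.547 and at most 0.516, short of the criterion. The floor, not the intensity in OR1 or OR2, sets these bounds, and the log2 bound of the first probe in OR1 was -0.98 when the percentile was taken over detected probes only.

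The probe named for SSX2, listed for SSX2 and SSX2B, had an intensity of 28.7 in H1975, against 34.8 in OR1 and 27.9 in OR2, with ratios of 1.38 and 0.945 as compared to H1975. The probe named for SSX3, listed also for SSX2 and SSX2B, had an intensity of 43.2 in H1975, against 44.3 in OR1 and 27.0 in OR2, lowest in OR2, with ratios of 1.17 (log2 0.22 ± 0.25) and 0.608 (log2 -0.72 ± 0.29) as compared to H1975. In OR1 as compared to OR2, the ratio for SSX3 was 1.92 (log2 0.94 ± 0.28). None of these passed the criterion. SSX2 and SSX3 each had another probe below background on all arrays. The SSX2 probe and a probe of SSX7 differ at a single base over 30, in capitals, and the SSX7 probe was below background in every line.
SSX2: ggaaaaccaactacctctgagaagattCac
SSX7: ggaaaaccaactacctctgagaagattAac

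CTAG2 and CTAG1A encode closely related tumor antigens. The probe named for CTAG2, listed for CTAG1A, CTAG1B and CTAG2, had an intensity of 30.6 in H1975, against 9.84 in OR1 and 13.8 in OR2, above background in H1975 only. It was down-regulated in both resistant lines, with ratios of at most 0.425 (OR1) and 0.438 (OR2). The CTAG1A probe, listed for CTAG1A and CTAG1B, had an intensity of 63.1 in H1975, against 36.0 in OR1 and 40.8 in OR2, highest in H1975 and above background on all arrays. Its ratio was 0.652 in OR1 (log2 -0.62 ± 0.24) and 0.629 in OR2 (log2 -0.67 ± 0.24), short of the criterion. In both CTAG probes H1975 was the brightest of the 3 lines.

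XAGE1B and GAGE2B were well above background on every array, and neither passed the criterion in any comparison. XAGE1B, for which the probe is listed with its copy XAGE1A, had an intensity of 129764 in H1975, against 161113 in OR1 and 140365 in OR2. No spot was saturated on any array. The ratio was 1.42 in OR1 (log2 0.50 ± 0.20) and 1.05 in OR2 (log2 0.07 ± 0.20) as compared to H1975, and the former was -0.08 on the log2 scale with scaling on spike-in probes. The GAGE2B probe had an intensity of 4144 in H1975, against 3820 in OR1 and 5675 in OR2, with ratios of 1.05 (log2 0.07 ± 0.20) and 1.33 (log2 0.41 ± 0.20). The files attach 4 accessions to this probe, of which 1 was found in the RefSeq table, as GAGE12F. The probes of GAGE1 and GAGE7 were below background in every line. The GAGE7 probe carries the 3 other accessions of the GAGE2B probe, so these probes disagreed on detection. Its intensity was 7.64 in H1975, against 8.40 in OR1 and 11.5 in OR2. Which GAGE gene gave the signal of the GAGE2B probe was not tested.

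XAGE3 had an intensity of 4.70 in H1975 and 7.29 in OR1, below background, and of 14.6 in OR2, above it. The ratio in OR2 was at least 1.13 as compared to H1975. The probe named for PAGE2B, listed for PAGE2 and PAGE2B, had an intensity of 22.0 in H1975, against 19.0 in OR1 and 21.4 in OR2 and ratios of 0.983 and 0.944 as compared to H1975, so that the lines differed by less than the technical SD of 0.37. The other PAGE2B probe and the PAGE2 probe were below background.

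**Figure D4:**
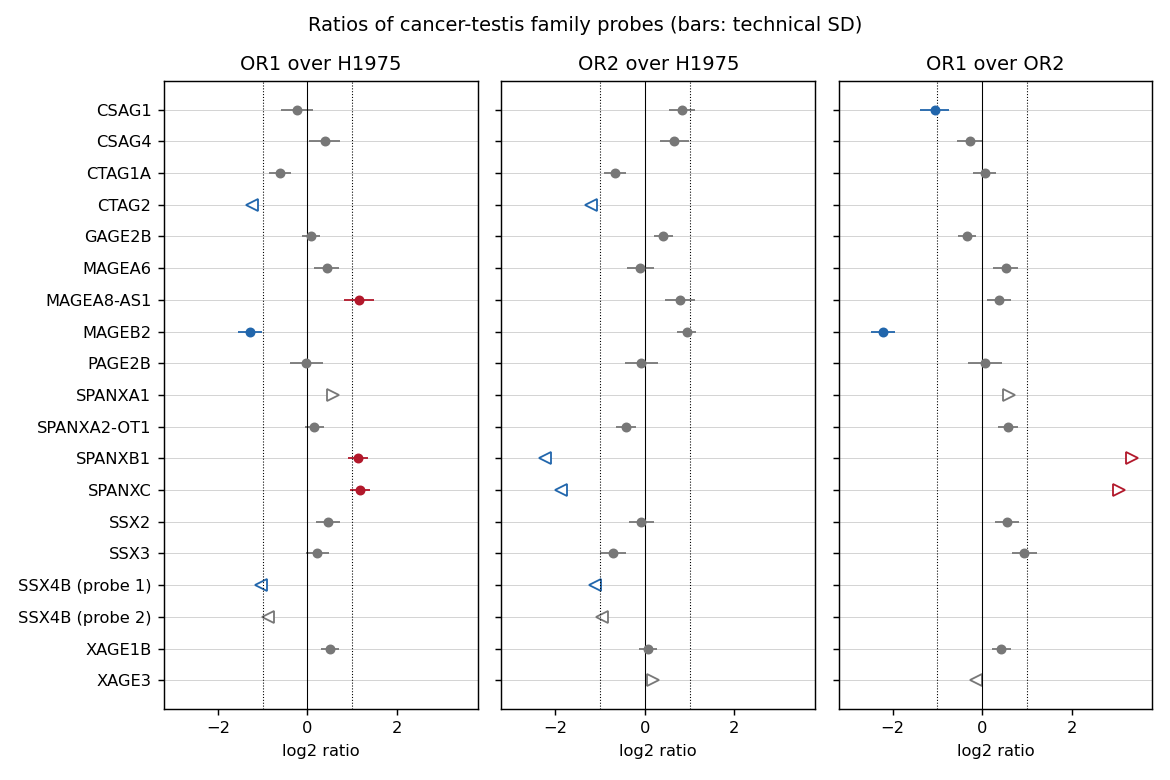
Log2 ratios of the 19 family probes in the 3 comparisons, with bars for the technical SD and open triangles for bounds that point away from 0 (red, ratio of at least 2; blue, ratio of at most 0.5; grey, neither; dotted lines at 1 and -1). SPANXB1 and SPANXC are red in OR1 and blue in OR2 as compared to H1975, and MAGEB2 is blue in OR1.

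Probes of the same gene often disagreed on detection. Of 13 family genes with more than 1 probe, 7 had none above background, 5 had some but not all, namely MAGEA6, PAGE2B, SPANXA2-OT1, SSX2 and SSX3, and 1, SSX4B, had all. For the 5 genes, the ratios given rest on a single probe that another probe for the same gene did not bear out.

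Sharing between copies touched most of the signals. Of the 71 family probes, 67 had an accession found in the RefSeq table and 16 were listed for more than 1 gene. Among the 19 probes above background, 11 were listed for more than 1 gene and 8 for a single gene, of which the GAGE2B probe had further accessions without a match. Those are also attached to the GAGE7 probe, which was below background. The probes with a single gene, apart from that of GAGE2B, were those of CSAG1, CSAG4, MAGEA8-AS1, MAGEB2, SPANXA2-OT1, SPANXB1 and XAGE3. Between probe sequences, 4 of the 71 family probes shared a run of 20 bases with another probe of the array. Of the 19 above background, 1 did, that of SSX2. Probes were not compared with the transcripts of copies, so these counts do not show how far copies share signal. Each set of probes with a listed gene in common was also reduced to its brightest probe. Then 2 member probes were up-regulated and 2 down-regulated in OR1, and 2 were down-regulated in OR2. In OR1 as compared to OR2, 1 was higher and 2 were lower. SPANXB1 and SPANXC then count as 1. The probes of CTAG2 and CTAGE5 give way to brighter probes of CTAG1A and CTAGE4, which were short of the criterion.

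RefSeq promoter windows on GRCh38.p14 were found for 41 of the 57 family genes, and for 11 of the 18 above background. Where a gene had several windows, that with the most CG was used for the CG count. The number of CG dinucleotides had a median of 10.0 in the family genes (1 to 21), 12.0 in those above background and 10.0 in those that were not, as compared to 16.0 over all 27305 genes and 16.0 over the 949 genes on chromosome X. MAGEB2 had 21, MAGEA6 19, XAGE1A 17, CSAG1 16, SPANXB1 9, SPANXC 8 and SPANXA1 6. Members that differed most between the lines thus had windows with many CG as well as windows with few. The core CCGGAA, bound by ETS factors, which activate several MAGEA genes in tumors, was found on either strand in any window of 3 of the 41 genes (7.32%), MAGEA6 among them, as compared to 20.1% of all genes. The core GGGCGG, bound by Sp1, was likewise found in 12 of 41 (29.3%) as compared to 48.3%. Both cores contain a CG themselves, they differ from each other in letters, and a match is a description of these windows only.

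**Figure D5:**
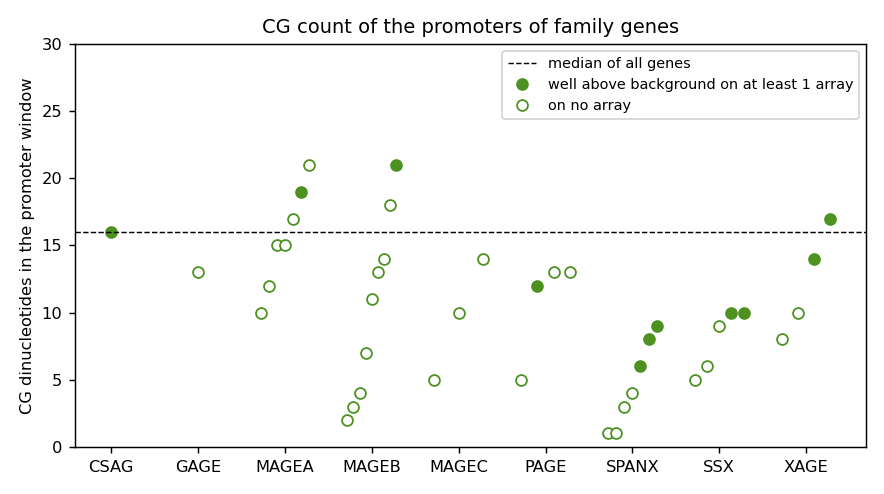
Number of CG dinucleotides in the RefSeq promoter window of each family gene (1 point per gene, grouped by family; filled, well above background on at least 1 array; open, on no array). The dashed line is the median over all genes, 16.0, and most members lie below it.

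Cancer-testis genes outside these families were also examined. From a list of 49 further gene names, 43 were on the array and 22 were above background on at least 1 array. Of 26 probes with a ratio, 3 were up-regulated and 10 down-regulated in OR1, and 2 and 7 in OR2, where 9.2% and 9.5% of all probes were called in OR1 and 7.85% and 8.46% in OR2. The median log2 ratio was -0.35 in OR1 and -0.50 in OR2. With normexp, 1 was up-regulated and 8 down-regulated in OR1, as compared to 928 and 1348 of all 28615 probes. In OR2, 0 and 6 were, as compared to 795 and 1079 of all 28410 probes. PRAME, a repressor of retinoic acid receptor signaling, fell in both lines by 2 of its probes. Their ratios were 0.319 and 0.438 in OR1 and 0.367 and 0.339 in OR2. The remaining PRAME probe was below background on every array. CT45A1 had an intensity of 17121 in H1975, against 5594 in OR1 and 7370 in OR2, with H1975 the highest and ratios of 0.373 and 0.419. The probe of CT45A5, of the same family and counted separately, had ratios of 0.389 and 0.396. Whether these probes share signal was not tested. DDX43, an RNA helicase of the germ line, had an intensity of 237.8 in H1975, against 2.95 in OR1 and 114.7 in OR2, below background in OR1 only, with ratios of at most 0.0547 (OR1) and 0.469 (OR2). LEMD1 fell to ratios of 0.117 (OR1) and 0.170 (OR2). ZNF165 fell to 0.290 and 0.325. ACTL8, an actin-like protein, had 2 probes, with ratios of 5.30 and 3.91 in OR1 and 2.71 and 2.25 in OR2, neither of which passed the criterion in OR2 with normexp. CT83 had ratios of 2.06 and 1.47.

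The MAGE genes that most tissues express, such as MAGED1 and MAGED2, belong to the same superfamily and were also examined. Of 12 gene names listed, 10 were on the array and 7 above background. None of their probes passed the criterion, out of 8 with a ratio in OR1 and 7 in OR2. Of all probes, 9.2% were up-regulated and 9.5% down-regulated in OR1, and 7.85% and 8.46% in OR2. With so few probes, the absence of calls does not set these genes apart. In OR2, 1 passed the criterion under quantile normalization and 4 other settings of the scaling or values, and 1 did in OR1 with no background filter. MAGED2 came close, with ratios of 1.89 and 1.63 by its 2 probes in OR1 and 1.97 and 1.46 in OR2. The median log2 ratio of the listed genes was 0.55 in OR1 and 0.54 in OR2, as compared to 0.05 and -0.04 over all probes. With scaling on spike-in probes, that in OR1 was -0.03, as compared to -0.54 over all probes.

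Of 33 regulators of chromatin and transcription with a known role at cancer-testis promoters, 31 were above background. None of their probes was up-regulated in OR1 or OR2, where 9.2% and 7.85% of all probes were. Down-regulation was seen in 4 of 56 in OR1 and 3 of 57 in OR2, as compared to 9.5% and 8.46% of all probes. With scaling on spike-in probes, 15 of 56 were down-regulated in OR1, as were 7134 of all 28615 probes. In OR2, 1 was up-regulated under 5 alternatives, quantile normalization among them. With no background filter, 4 of 64 were up-regulated in OR1 and 2 in OR2, as were 5961 and 4897 of all 58200 probes. DNMT3B, a DNA methyltransferase, had an intensity of 673.6 in H1975, against 249.9 in OR1 and 252.6 in OR2, with ratios of 0.423 and 0.365. Its other probe was below background on every array. TET3, which oxidizes methylated DNA, was above background by a single probe and in H1975 only, at an intensity of 36.1. The ratios of that probe were at most 0.360 and at most 0.340. The other TET3 probes were below background on every array. EZH2, a histone methyltransferase, had ratios of 0.426 and 0.563. A single probe of UHRF2 had a ratio of 0.310 in OR1, whereas the other had 0.765. TRIM28 had ratios of 0.548 and 0.488. DNMT1, which maintains DNA methylation, had an intensity of 1313 in H1975, against 1245 in OR1 and 1379 in OR2, with ratios of 1.08 and 1.02. Whether these levels bear on the members was not tested.

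The arrays were alike in coverage, with 45.6% to 45.9% of probes well above background and a 75th percentile of intensity between 138.1 and 161.8. All 6 epithelial marker genes were above background in every line, and 4 of their 9 probes were down-regulated in OR1 and 4 in OR2. In both lines these were the probes of CDH1, EPCAM, KRT7 and KRT19. Their ratios were 0.0205, 0.0370, 0.164 and 0.463 in OR1, and 0.0800, 0.0725, 0.170 and 0.492 in OR2. The probes of KRT8 and KRT18 were short of the criterion. Of all probes with a ratio, 9.2% were up-regulated and 9.5% down-regulated in OR1, and 7.85% and 8.46% in OR2. Of 7 testis germ cell markers, only ACR was above background, by 2 probes of which 1 was down-regulated in both resistant lines, and DDX4, DAZL, PRM1, PRM2, TNP1 and ZPBP were below background on every array. Of 4 leukocyte markers, 3 were above background, with 1 of 3 probes up-regulated in each resistant line. That probe was of CD14, with ratios of 4.25 (OR1) and 6.56 (OR2). PTPRC was above background by a single probe, with intensities of 21.0, 20.7 and 20.5 in H1975, OR1 and OR2. CD3E was below background on every array. Of 2 endothelial markers, both were above background, with 2 of 3 probes up-regulated in OR1 and none in OR2. Of 4 lung lineage markers, 3 were above background, with 1 probe up-regulated and 1 down-regulated in OR1 and 1 up-regulated in OR2. NKX2-1 was among these, with ratios of 0.252 (OR1) and 1.37 (OR2).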

How the data were processed

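The authors hybridized complementary RNA of each line to 1 Agilent single-colour array, and the 3 arrays lie on 1 slide. The authors deposited the scanner software's intensity of each spot, which is background-corrected within its array and not yet scaled across arrays, together with their table of normalized intensities. The software version is 9.5.1.1 per the labels and 10.7.1.1 per the file headers. Control and outlier spots (45 to 61 per array) were dropped. Spots of the same probe were averaged on the log2 scale, from which the 75th percentile of the non-control probes of the array was subtracted.

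Lines were compared as ratios of 1 array to 1 array, with bounds where a side was not well above background. There was no test, and the number of arrays limits the precision. Named genes were those past a ratio of 2 or 0.5 in any comparison and the brightest of each family. The remaining members above background, the promoter stretches and the genes named from the other lists were chosen after their values were seen. The members and lists were chosen with earlier results of these data known. Probe positions are on hg19. Accessions were named, and promoters taken, from RefSeq tables on GRCh38.p14.

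Alternatives were other scalings (quantile, median, none, 7 spike-in probes, and the 75th percentile of detected probes only), normexp with an offset of 50, the authors' normalized intensities, other background filters, kept outlier spots, left-out saturated spots, ratios of 4 and 1.5, and fewer probes per gene or set. The counting was tested on simulated data in which only bright probes were changed and no bounds arose. That test does not cover dim probes or bounds. Python 3.11.15, numpy 2.4.6, pandas 2.3.3, Biopython 1.88, R 4.3.3 and limma 3.58.1 were used.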

Additional observations from a re-analysis of the deposited data

Results flagged for a closer look

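In 3 members, OR1 and OR2 went in opposite directions from H1975, each by more than 2 technical SDs or past the criterion as a bound. The ratio of OR1 to OR2 was at least 10.2 for SPANXB1, at least 8.32 for SPANXC and 0.215 for MAGEB2. For SPANXB1 and SPANXC, OR1 was above and OR2 below H1975, and for MAGEB2 the reverse. With 1 array per line, the difference between the resistant lines was not tested. The SPANXC probe is also listed for SPANXB1, so these are not separate observations. On the log2 scale, OR1 over OR2 was at least 2.71 for SPANXB1 with scaling on spike-in probes and at least 1.43 with normexp, and at least 2.42 and 1.29 for SPANXC. These are bounds set by the floor in OR2. The measured log2 ratio of MAGEB2 was -2.86 and -0.95.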

How the results depend on the processing

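With 1 array per line, no count of members was free of the choice of setting. As reported, 3 member probes were up-regulated and 4 down-regulated in OR1, none and 5 in OR2, and 2 were higher and 2 lower in OR1 as compared to OR2. Without scaling, OR1 had none up-regulated and 7 down-regulated, as compared to 1880 and 3689 of all 28615 probes. With scaling on 7 spike-in probes, OR1 had none and 11, as compared to 999 and 7134 of all 28615 probes. Lower than in OR2 were 7, as compared to 4997 of all 28083 probes. The median log2 ratio of all probes in OR1 was then -0.54, as compared to 0.05 as reported and -0.14 without scaling. The share of up-regulated calls among all called probes in OR1 was 49.2% as reported, 33.8% without scaling and 12.3% with spike-in scaling. In OR1 as compared to OR2, it was 52.6%, 24.9% and 4.49%, and 40.3% with median scaling. With the 75th percentile taken over detected probes only, 1 probe, that of MAGEB2, was up-regulated in OR2. Normexp, whose offset of 50 was added to these dim signals, left none up-regulated and 1 down-regulated in OR1, 1 down-regulated in OR2 and 0 lower in OR1 than in OR2. It called 928 and 1348 of all probes in OR1, as compared to 2633 and 2717. Where both arrays had to be above background, 2 were down-regulated in OR1, 1 in OR2, and 0 were higher in OR1 than in OR2, since bounds are then left out. With no background filter, 10 of 85 member probes were up-regulated and 7 down-regulated in OR1, as compared to 5961 and 4826 of all 58200 probes. In OR2, 4 and 8 were, as compared to 4897 and 4849. Higher in OR1 than in OR2 were 6 and lower 4, as compared to 3730 and 2699. At a ratio of 4, OR1 had none and 1, OR2 had 1 down-regulated, and 1 was lower in OR1 than in OR2. At a ratio of 1.5, 11 of 29 were down-regulated in OR1, as compared to 5312 of all 28615 probes. In OR2, 6 of 29 were up-regulated and 10 down-regulated, as compared to 5056 and 5573 of all 28410 probes. Higher in OR1 than in OR2 were 4 of 27 and lower 4, as compared to 3098 and 2518 of all 28083 probes. With 1 probe per set that shares a listed gene, 2 were down-regulated in OR1, 2 in OR2 and 1 was higher in OR1 than in OR2. Quantile normalization, median scaling, the authors' normalized values, kept outlier spots, left-out saturated spots, 1 probe per gene and leaving out SSX2IP and CTAGE kept every count within 1.5 times that reported. Of 498 ratios of 17 named probes under alternatives, 426 stayed within 1 technical SD, 72 moved further, 30 of them with spike-in scaling and 24 with normexp, and none past the criterion changed sign. The slide could not be fitted as a block, because all arrays lie on it. No paired analysis was possible because each line has 1 array.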

Other observations

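SSX2IP and the CTAGE genes carry the start of a family name but lie on autosomes, on chromosomes 1, 7, 10, 13, 14 and 18 of hg19. SSX2IP is a protein of centrosomes and cell junctions that binds SSX2, and CTAGE5, now named MIA2, acts in the export of large cargo such as collagen from the endoplasmic reticulum. All 8 genes were above background in every line, by 11 of 14 probes. A probe of CTAGE5, listed also for CTAGE4, CTAGE8 and CTAGE9, had an intensity of 469.0 in H1975, against 99.8 in OR1 and 139.3 in OR2. H1975 was the highest, and the ratio was 0.243 in OR1 (log2 -2.04 ± 0.21) and 0.289 in OR2 (log2 -1.79 ± 0.21). Another probe, listed for MIA2 alone, had ratios of 1.35 and 1.16, so the probes of CTAGE5 disagreed.

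CTAGE4 had an intensity of 1754 in H1975, against 871.3 in OR1 and 1175 in OR2 by its brighter probe, with ratios of 0.567 and 0.652, and its other probe had ratios of 0.526 and 0.676. Both probes are listed for further CTAGE genes and were short of the criterion as scaled here. The brighter passed it in OR1 without scaling (log2 -1.01) and with scaling on spike-in probes (log2 -1.40). The other, with the lower ratio in OR1, passed it under these settings as well and also with median scaling. SSX2IP had ratios of 0.656 and 0.581 by the brighter of its probes and of 0.895 and 1.68 by the other.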
